A study of Homo sapiens with 4 samples.

Results

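MM.1S cells treated with MLN4924 for 24 h were set against MM.1S cells treated for 16 h, and 12446 genes were compared between these arrays. These genes were all those, of 19775 with a probe set of their own, whose brightest probe set had a mean intensity above that of the median probe set (93.9). MM.1S is an established human multiple myeloma line of malignant plasma cells. The series holds 4 Affymetrix expression arrays with 1 array a group: cells given DMSO, the solvent, as the control, with no time in its label, and cells given 250 nM MLN4924 for 8, 16 or 24 h. No group has a replicate and all cells are of 1 line, so differences are given in size with no test, and a difference between arrays cannot be told apart from a difference between cultures. The question this pair of times answers is what was still changing late in the treatment, what had gone back towards the control, and how far a pair of similar arrays lay apart.

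MLN4924 (pevonedistat) blocks the NEDD8 activating enzyme, a pair of NAE1 and UBA3, which charges the small ubiquitin-like protein NEDD8 for attachment to cullins. Cullins are the scaffolds of the cullin-RING ubiquitin ligases, which need NEDD8 to work well and which mark proteins such as the replication licensing factor CDT1, the antioxidant regulator NRF2, the NF-kB inhibitor IκBα and the CDK inhibitors p21 and p27 for the proteasome. Cells without this activity are known for keeping CDT1, copying stretches of DNA again and activating checkpoints. These are changes of protein stability, and the arrays measured only RNA.

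Values are in the deposited intensity units, a step is the log2 difference 24 h minus 16 h, and 4 values in a row stand for the control, 8, 16 and 24 h arrays in that order. Plasma cell genes were nearly level between the arrays. Some were high on both, but CD38 measured only 412 at 16 h and 432 at 24 h. CD27 gave 309 at 16 h and 323 at 24 h. SDC1, the plasma cell surface marker CD138, measured 2939 at 16 h and 2785 at 24 h, IRF4, the transcription factor myeloma cells depend on, 5160.1 at 16 h and 5144 at 24 h, and XBP1, the driver of the secretory program, 9848 at 16 h and 10030.3 at 24 h. Of 27 measured plasma cell and myeloma genes the median difference was -0.00049 (log2), and none moved by 0.5 or more. The largest difference among them was that of BHLHA15, a regulator of secretory cells, with 667 at 16 h and 904 at 24 h. Of the markers of other cell types, 1 of 12 stromal, 4 of 12 T and NK cell, 4 of 12 myeloid, 3 of 10 erythroid and 4 of 10 B cell genes passed the intensity limit. Only HBB, a globin gene, exceeded 500 at 24 h among these, with 1079.7, 1043, 995 and 1219 on the control, 8, 16 and 24 h arrays.

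The medians of the 4 arrays lay within 0.0483 (log2) of each other. Bacterial control transcripts differed more: the 24 probe sets for the poly-A controls had a median 24 h minus 16 h difference of 0.34 (log2, from 0.09 to 0.46), and the 18 for the hybridisation controls one of 0.13 (from -0.014 to 0.21). The 3' to 5' signal ratio, a sign of RNA integrity and labelling, was 1.18 at 16 h and 1.21 at 24 h for GAPDH, and 2.14 and 1.99 for ACTB. The part of these differences in the results below was not tested.

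Across genes the 2 late arrays lay close together. The difference 24 h minus 16 h had an SD over genes of 0.176 (log2) around a median of -0.015, and 10856 genes (87.2%) were within 0.25 of no difference. The SD was 0.220 between 8 h and control, 0.260 between 16 h and 8 h and 0.280 between 24 h and 8 h. Between 16 h and control it was 0.293, and between 24 h and control 0.294. The pair of 24 h and 16 h was the narrowest of the 6. It had been named the closest pair beforehand, so its rank is given only as a description. The spread was not symmetric: the 5th percentile was -0.26 and the 95th 0.30, the lowest gene -0.99 and the highest 1.41. Above the line of no difference lay 5667 genes (45.5%).

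At least 2-fold higher at 24 h were 5 genes (0.0402% of those measured), and at least 2-fold lower were 0 (0%). With the lower limit of 0.5 on the log2 scale, which is used from here on to call a gene higher or lower, 163 genes (1.31%) were higher and 34 (0.273%) lower. The spread changed little with intensity, with an SD of 0.193 in the dimmest of 5 equal groups of genes and 0.142 in the brightest. Higher genes outnumbered lower ones most in the brighter groups: 26 higher and 14 lower in the dimmest, 56 higher and 1 lower in the fourth, and 27 higher and 3 lower in the brightest.

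**Figure D1:**
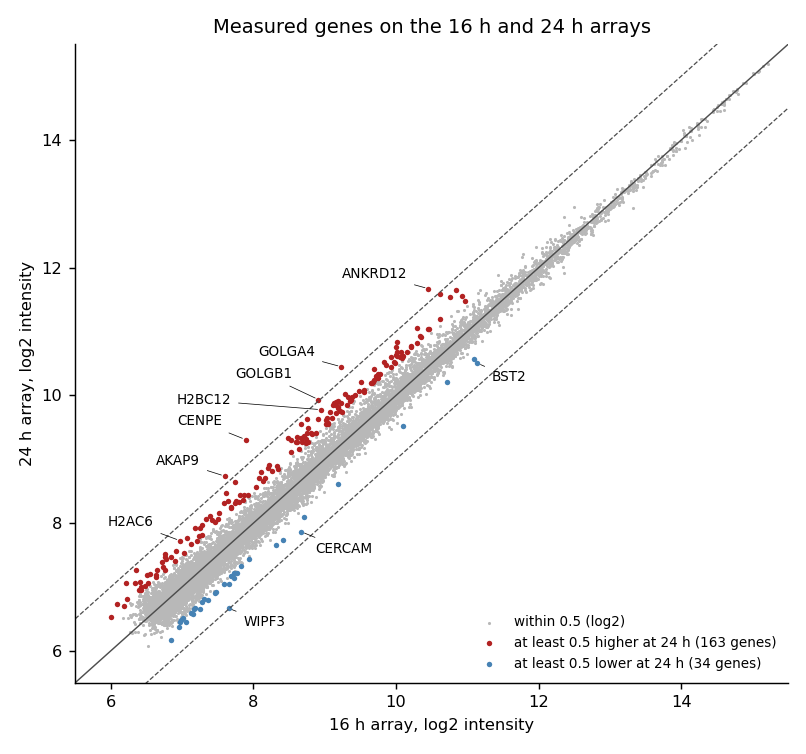
Log2 intensity of the 12446 measured genes on the 16 h array (x axis) and the 24 h array (y axis), 1 point a gene. Red points are the 163 genes at least 0.5 higher at 24 h and blue points the 34 at least 0.5 lower; the solid line is equality and the dashed lines are 2-fold, which 5 genes pass above and 0 below.

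All 5 of the 2-fold higher genes encode proteins of the kinetochore, the nucleus or the Golgi apparatus, and all were low at 16 h. CENPE, the kinesin that carries chromosomes to the middle of the spindle, measured 799 in DMSO and 867, 238 and 633 after 8, 16 and 24 h. The 16 h array was the lowest, and the 24 h value lay between it and the other arrays, 2.67-fold above the 16 h value (1.41 on the log2 scale). ANKRD12, a nuclear ankyrin-repeat protein that binds histone deacetylases, measured 3422 in DMSO and 3141, 1402 and 3257 after 8, 16 and 24 h. Here 24 h was back near control, 2.32-fold above 16 h. GOLGA4, a golgin that tethers transport vesicles at the trans-Golgi network, gave 1514, 1301, 602 and 1395 in the same order of arrays, a 2.32-fold difference between the last 2. AKAP9, which anchors kinases and microtubule nucleation at the centrosome and Golgi, gave 588, 504, 194 and 426, a 2.2-fold difference that left it below control. GOLGB1, the golgin giantin, gave 759.5, 617, 482 and 978. It was the only one of the 5 that ended above the control array, at 2.03-fold its 16 h value. GOLGB1, at 1.02, is the last gene inside the 2-fold limit and ASPM, at 0.97, the first outside it.

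Other probe sets of the same genes give the nearest thing to a repeat measurement that these arrays hold, although they share the RNA and the hybridisation. A measured second probe set existed for 5719 genes; the steps of the 2 probe sets differed with an SD of 0.185, and in 63.8% of genes they had the same sign. Of the 163 higher genes 106 had one, which was also above 0 in 98 and also at least 0.5 in 54, with a median of 0.51 against 0.60 in the brightest. Of the 34 lower genes only 8 had one, below 0 in 6 and at -0.5 or beyond in 1, with a median of -0.20 against -0.55. Both groups were chosen on the brightest probe set, so the second ones are given as a description. ANKRD12 had 0.96, GOLGB1 0.81 and GOLGA4 0.61 in the second probe set, while KIF20B (0.91 against -0.17), ZNF91 (0.84 against -0.072) and COG5 (0.89 against 0.039) did not repeat. CENPE and AKAP9 had no second measured probe set. For some genes a step over all probe sets is also given, dim ones included. It is the difference between the median intensities on the 2 arrays, not the median of the steps. For AKAP9 it was 0.72.

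**Figure D2:**
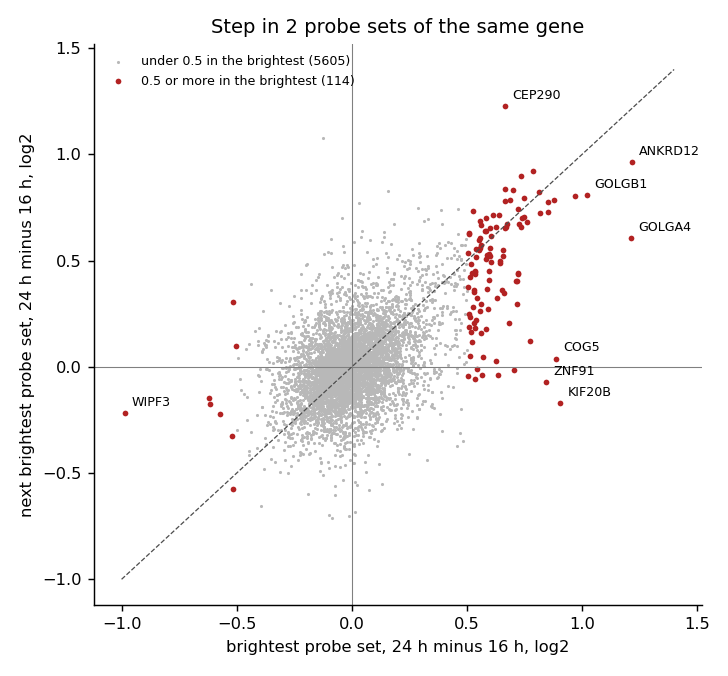
The 24 h minus 16 h difference (log2) in the brightest probe set of a gene (x axis) and in its next brightest measured one (y axis), 1 point for each of 5719 genes; red points moved by 0.5 or more in the brightest. Most red points on the right lie above 0, some near the dashed line of equality, with KIF20B and ZNF91 below 0 and COG5 near it.

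Of 48 measured genes of mitosis and G2/M, 5 were higher and 0 lower, and the median was -0.0093, with 22 above 0 and 26 below. Over all genes 1.31% were higher and 45.5% above 0, with a median of -0.015, so the list's split around 0 was near that of all genes. The 5 were CENPE, ASPM, KIF20B, CENPF and SGO2, of the spindle and kinetochore. ASPM, the spindle pole protein first known from microcephaly, measured 3093 in DMSO and 3359, 1572 and 3074 after 8, 16 and 24 h. CENPF, a kinetochore and nuclear matrix protein, measured 2932 in DMSO and 3305, 1725 and 2981 after 8, 16 and 24 h. Both sat lowest at 16 h and were back near control at 24 h, and their second probe sets moved alike, by 0.80 and 0.92. SGO2, a shugoshin that guards centromeric cohesion, gave 1344, 1548, 823 and 1205, again with the 16 h array lowest and a second probe set at 0.60. KIF20B, a late mitotic kinesin, gave 654, 548, 214 and 402, but the direction was not shared by its second probe set. In bulk RNA a change in how many cells are in mitosis and a change in RNA per cell cannot be told apart.

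Coiled-coil proteins of the Golgi, centrosomes and endosomes were the list with the highest median among those with 5 or more measured members. The lists were chosen with earlier results of these data known, so its rank and counts are given only as a description. Of 29 measured, 11 were higher and 0 lower, 25 were above 0, and the median was 0.24, where over all genes 1.31% were higher, 0.273% lower and 45.5% above 0. At 8, 16 and 24 h their medians against control were -0.035, -0.28 and 0.0070. Besides the 3 already given, CCDC186, which helps to sort cargo into dense-core vesicles, measured 631, 560.3, 408 and 749.6 on the control, 8, 16 and 24 h arrays. EEA1, the early endosome tether, measured 516, 329, 196 and 353 and stayed under its control value at 24 h. Their second probe sets stood at 0.78 and 0.73. The centrosomal proteins PCM1 (0.56), CEP350 (0.58) and CEP290 (0.66, second probe set 1.23) were in the same direction, as was GCC2, a golgin of the trans-Golgi (530.4, 601, 436 and 722). The lowest measured probe sets of PCM1 and CEP350 stood at 0.13 and 0.085. Over all probe sets of the gene, dim ones included, the step was 0.24 for EEA1 and 0.34 for GCC2. The 3 measured probe sets of EEA1 ran from 0.21 to 0.85.

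Other higher genes lay outside these lists, and some are named here after their values were seen. TPR, the basket protein of the nuclear pore, measured 3498, 3055, 1833 and 3221 on the 4 arrays in order of time, and RIF1, which controls replication timing and double-strand break repair, 1294, 1196, 560.3 and 942. In both the 16 h array was the lowest of the 4, and the second probe sets stood at 0.82 and 0.71. The 5 measured probe sets of TPR ran from 0.79 to 0.99. The 8 of RIF1 ran from -0.0085 to 0.75, with a median of 0.45. The nucleoporin RANBP2 (0.52), the SMC-family proteins SMC5 (0.65) and RAD50 (0.77, second probe set only 0.12), and the spindle microtubule protein MAP9 (0.85) were also higher. The lowest measured probe set of MAP9 stood at 0.13. IGF1, a growth factor of myeloma cells named here after its values were seen, gave 739.6, 479, 481 and 793, low at 8 and 16 h, with a second probe set at 0.74. NAT8B, an acetyltransferase, was dim (118, 81.9, 82.0 and 153). Of 31 measured chromatin remodellers and histone methyltransferases, 5 were higher and 0 lower, against 1.31% and 0.273% of all genes, with a median of 0.094. They were ATRX, CHD9, CHD1 and BPTF, motors or subunits of remodelling complexes, and ARID4B (0.50), a subunit of a histone deacetylase complex. ATRX measured 1022, 933, 620.2 and 1037, and CHD1 812, 771, 518 and 787, each lowest at 16 h and near control at 24 h. In the list of splicing factors 1 of 39 was higher, NKTR (2018, 1963, 1394 and 2110.0), and in that of translation factors 1 of 31, EIF5B (3301, 3437, 1945 and 2999), the GTPase that joins the ribosomal subunits, with a second probe set at 0.66. A count of 1 in lists of this size is near the 1.31% of all genes.

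By where they stood at 16 h, 119 of the 163 higher genes were returning: at least 0.25 under control at 16 h and nearer to it at 24 h. On 32 the 16 h value was within 0.25 of control, a late onset, 7 were already above control by that much and went on, and 5 were of none of these kinds. The 34 lower genes held 15 that returned, 16 of late onset, 1 that went on and 2 others. At least 0.5 below both 8 h and 24 h, and so low on the 16 h array alone, were 62 of the higher genes; high on it alone were 5 of the lower genes. Of the 119 returning genes 58 were in that group of 62. The 16 h array enters both the step and the distance from control, so its noise adds to the count of returns. Of the 62, 47 had a second probe set, which was above 0 in 45 and at least 0.5 in 26; a second probe set is read from the same array, so a change in the cells and one in the RNA or hybridisation of that array cannot be told apart.

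**Figure D3:**
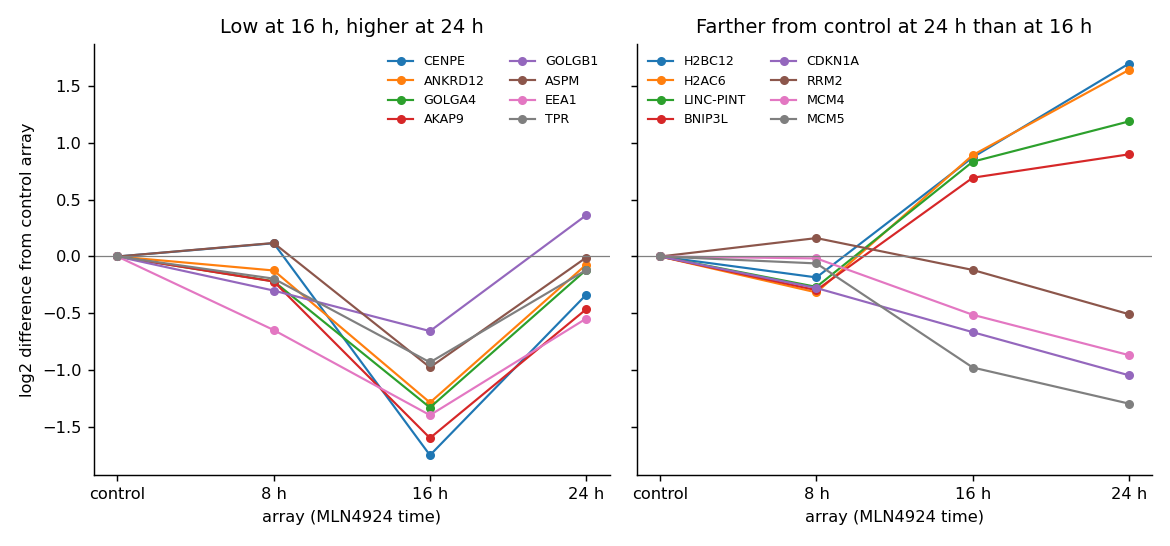
Log2 difference from the control array (y axis) at 8, 16 and 24 h of MLN4924 (x axis) for single genes, 1 array a point. Left, 8 genes lowest at 16 h and higher at 24 h; right, 8 genes farther from control at 24 h than at 16 h, the histone genes H2BC12 and H2AC6 upwards and RRM2, MCM4, MCM5 and CDKN1A downwards.

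Few genes went on upwards, and the first among them were histone genes. H2BC12, a core histone H2B gene, measured 269.8 in DMSO and 237, 494 and 876 after 8, 16 and 24 h. H2AC6, a core histone H2A gene, measured 67.6 in DMSO and 54.3, 126 and 211 after 8, 16 and 24 h. Both were above control on both late arrays, 0.83 and 0.75 higher (log2) in the last step. The control and 8 h values of H2AC6 were near the floor of 48.4, and it passed the intensity limit only through the late arrays. H2BC12L, an H2B-like gene, gave 123, 109, 145 and 242, and H2BC6 gave 113, 97.3, 121 and 163, which was short of the limit. Only 12 of 46 replication-dependent histone genes on the list passed the intensity limit. Of these 2 were higher, H2AC6 with the limit just given, and 0 lower, 9 were above 0, and the median was 0.11. Over all genes 1.31% were higher, 0.273% lower and 45.5% above 0. H4C4 was the lowest, at 192 at 16 h and 150.5 at 24 h. These transcripts normally end in a stem-loop and have no poly-A tail, so a protocol primed from poly-A reads mainly their polyadenylated forms, and near-identical copies can share probes. The other 5 that went on were MACROD2 (251, 262, 449 and 678), MORC1 (496, 577, 655 and 962), CREBRF (241, 235, 399 and 572), a regulator of stress signalling and energy use, the chemokine CCL4 (452, 286, 605 and 858) and EFEMP1 (237, 232, 324 and 459), an extracellular matrix protein. The step over all probe sets of MACROD2, dim ones included, was 0.20, and its second measured probe set stood at 0.41.

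Promoter windows are shown for the 2 histone genes that went on and for ASPM and GOLGB1, which returned, so that the 2 kinds can be compared letter by letter. They are RefSeq windows on GRCh38.p14 of 300 bases, from 250 before the gene's start, written 5′ to 3′ on the gene's strand. Capitals mark the CCAAT box, on either strand. In the histone windows they also mark the octamer ATTTGCAT, on either strand, and in that of ASPM the CHR TTTGAA, on either strand, a motif of genes expressed late in the cell cycle. The windows lie at chr6:26123922-26124221, plus strand, at chr6:27146809-27147108, minus strand, at chr1:197146620-197146919, minus strand, and at chr3:121749692-121749991, minus strand. The histone windows were chosen after the values were seen.
H2AC6: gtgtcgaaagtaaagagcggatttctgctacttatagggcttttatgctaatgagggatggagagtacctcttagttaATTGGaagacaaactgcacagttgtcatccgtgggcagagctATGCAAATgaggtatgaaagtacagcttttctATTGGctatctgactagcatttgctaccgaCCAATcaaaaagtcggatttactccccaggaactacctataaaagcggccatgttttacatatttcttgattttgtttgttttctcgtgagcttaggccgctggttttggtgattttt
H2BC12: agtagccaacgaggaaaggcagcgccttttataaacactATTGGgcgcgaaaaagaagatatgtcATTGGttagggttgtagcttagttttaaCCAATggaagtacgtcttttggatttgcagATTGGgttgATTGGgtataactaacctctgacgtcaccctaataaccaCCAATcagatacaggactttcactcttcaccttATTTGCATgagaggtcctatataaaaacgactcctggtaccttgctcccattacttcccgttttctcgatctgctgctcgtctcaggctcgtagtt
ASPM: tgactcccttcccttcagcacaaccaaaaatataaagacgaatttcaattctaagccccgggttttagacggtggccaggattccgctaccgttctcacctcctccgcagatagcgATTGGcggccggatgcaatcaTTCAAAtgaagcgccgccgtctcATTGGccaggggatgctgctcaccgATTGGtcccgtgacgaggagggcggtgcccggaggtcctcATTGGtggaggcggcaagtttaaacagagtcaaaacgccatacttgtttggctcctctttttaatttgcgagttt
GOLGB1: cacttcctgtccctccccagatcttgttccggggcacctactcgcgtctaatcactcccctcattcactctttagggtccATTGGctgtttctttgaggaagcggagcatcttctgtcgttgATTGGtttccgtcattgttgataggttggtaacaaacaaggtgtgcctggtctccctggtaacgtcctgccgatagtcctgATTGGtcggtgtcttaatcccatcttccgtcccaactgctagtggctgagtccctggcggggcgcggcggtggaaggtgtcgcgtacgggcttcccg
H2AC6 held 3 CCAAT boxes and 1 octamer and H2BC12 held 6 and 1, without overlap. The window of H2BC12 also held 1 match to the E2F site TTTCGCGC, which is not in capitals. ASPM held 4 CCAAT boxes and 1 CHR, and GOLGB1 held 3 CCAAT boxes. The window of ANKRD12 held none of these motifs and was 82.7% G and C.

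Searched on both strands in the 10036 measured genes with a RefSeq window, the octamer matched 1.27%, against 1.80% of all 27305 windows in the table. It matched 7 of the 135 higher genes with a window (5.19%): H2BC12, H2AC6, ZNF138, ZNF92, ZNF107, JMJD1C and COL19A1, and 0 of 32 lower genes. The CHR matched 14.1% of the higher genes, 9.38% of the lower and 9.90% of all measured, with 15.4% in the table. CCAAT matched 39.3%, 40.6%, 36.8% and 35.7% of the same sets. The core of the hypoxia response element, ACGTG, matched 35.6%, 25%, 26.3% and 21.6%. These are matches of letters, and no test was made of them.

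Most genes that copy DNA stood slightly lower at 24 h. Of 52 measured genes of DNA replication and G1/S, 46 were below 0 at 24 h against 16 h and 6 above, with a median of -0.17, the lowest of those lists. Over all genes 6777 of 12446 were below 0. By the 0.5 limit 0 were lower and 0 higher, and the highest and lowest were 0.34 and -0.39. The list's medians against control at 8, 16 and 24 h were -0.066, -0.48 and -0.65. RRM2, a subunit of ribonucleotide reductase, measured 11144 in DMSO and 12470.3, 10265 and 7834 after 8, 16 and 24 h. MCM4 and MCM5, subunits of the replicative helicase, measured 4757, 4703, 3333 and 2604 and 2532, 2427, 1285 and 1031 in that order of arrays. All 3 were lowest at 24 h. Their second probe sets were also below 0 but smaller, at -0.19, -0.13 and -0.13. RFC1, the large subunit of the clamp loader, went the other way (1355, 1110.1, 1022 and 1291). Of the windows of 45 of these genes, 17.8% held the E2F site TTTGGCGC, 26.7% TTTCCCGC and 11.1% TTTCGCGC, against 0.986%, 2.62% and 0.996% of measured genes and 0.659%, 1.66% and 0.546% of the table. Of the 135 windows of higher genes, 0 held the first, 2 the second (1.48%) and 3 the third (2.22%).

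CDT1, the licensing factor whose protein cullin-RING ligases destroy, gave 422, 394, 269 and 219.8 as RNA, and its second probe set was -0.44 between the late arrays. CDKN1A, the CDK inhibitor p21, gave 1324 in DMSO and 1092, 834 and 641 after 8, 16 and 24 h. Its RNA was lower on each later array, with a last step of -0.38. Over 21 measured p53 targets the median was -0.037, with 10 above 0 and 11 below. BAX, a pore-forming killer protein of mitochondria, was highest at 16 h (227, 277, 309 and 232) with both probe sets lower at 24 h, at -0.41 and -0.38, whereas SESN1 was 1177 at 16 h and 1388 at 24 h. Of 21 BCL2 family and apoptosis genes 15 were below 0, with a median of -0.085, where 6777 of all 12446 genes were below 0. PMAIP1, the BH3-only protein NOXA, gave 434, 322, 217 and 185, lowest at 24 h.

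Genes that moved the same way in each of the 3 steps were counted too. By a step of at least 0.1 (log2) each time, 91 of 12446 genes were higher at every step and 116 lower. That limit was chosen after the values were seen. It lies under 0.141, the pooled SD between probe sets of a gene in the 24 h minus 16 h difference. Last steps of about that size cannot be told apart from this spread. NCAM1, the adhesion molecule CD56, gave 77.4 in DMSO and 262, 612 and 832 after 8, 16 and 24 h. The DMSO value lay below the limit of 93.9 for measured genes, so no fold over the whole course is given. Its last step was 0.44 in the brightest probe set and 0.36 in the next. The 4 measured probe sets ran from -0.18 to 0.44, with a median of 0.28. Between the median intensities of all its probe sets, dim ones included, the step was -0.18. The enzyme AKR1C2 (102, 273, 477 and 530.4), the chemokine receptor CXCR3 (659, 1005, 1755 and 2099), the phosphodiesterase PDE4B (185, 242, 412 and 511) and HBP1, a transcriptional repressor of cell cycle genes (694, 825, 1381 and 1585), followed the same course. The last steps of AKR1C2 and CXCR3 were close to 0 in the second probe set, at -0.014 and 0.036. In the other direction, CRYBB1, a lens crystallin gene, gave 1840.4, 1340.4, 618 and 480.1, and MAL2, a membrane traffic protein, 913, 676, 337 and 298. GINS2, of the replicative helicase, gave 838, 774, 430.4 and 375, UHRF1, which maintains DNA methylation, 2681, 2421, 1613 and 1317, and MCM6 5770.4, 4891, 3171 and 2804, with a second probe set of MCM6 at 0.30. ID3, an inhibitor of basic helix-loop-helix factors, gave 403, 261, 224 and 188, and its relative ID1, the only lower gene that was already under control by 0.25 at 16 h, gave 185, 137, 152 and 100.4.

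Late-onset genes were near control at 16 h and higher at 24 h. RICTOR, the subunit that defines mTOR complex 2, measured 679 in DMSO and 837, 726 and 1189 after 8, 16 and 24 h. SAMD9L and SAMD9, interferon-inducible neighbours that restrain growth, measured 948, 1143, 979 and 1545 and 964, 1075, 1006 and 1463. ZEB1, a zinc-finger repressor, measured 476, 553, 419 and 659. In these 4 the 24 h array was the highest, and the second probe sets moved by 0.40, 0.52, 0.56 and 0.55. RB1CC1, the autophagy scaffold FIP200 (1268, 1583, 1302 and 1922), and XRN1, the main 5' to 3' exoribonuclease of the cytoplasm (936, 877, 874 and 1291), were alike, with 0.67 and 0.57. Of the 32 genes 13 had a second probe set, above 0 in 11 and at least 0.5 in 5. The largest step of the 32 was that of H2BC12L (0.74), given above with the histones. Others with large steps were GLDN (155, 194, 162 and 267), HOXD11 (115, 137, 105 and 169) and MIF-AS1 (115, 174, 109.6 and 174). On these 24 h exceeded 16 h by 0.72, 0.68 and 0.67. The class takes no account of 8 h, and MIF-AS1 was as high at 8 h as at 24 h, so it was low at 16 h between them. DST, a giant linker of cytoskeletal filaments, passed from below control to above it (1257, 1448, 1032 and 1817). Its 4 measured probe sets ran from 0.72 to 0.93, though the step over all of its probe sets, dim ones included, was 0.12. ATM, the checkpoint kinase, was just short of the limit at 490.0 at 16 h and 692 at 24 h. Its second probe set stood at 0.31, and its step over all probe sets, dim ones included, was 0.057.

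The 34 lower genes were mostly dim and of mixed function. WIPF3, an actin regulator, had the lowest step, with 173 in DMSO and 192, 201 and 102 after 8, 16 and 24 h. That is 1.98-fold lower at 24 h than at 16 h in this probe set but -0.22 (log2) in the next. CERCAM, an adhesion-linked protein of the endoplasmic reticulum, gave 332, 385, 407 and 233, with -0.33 over all probe sets. P4HA2, a collagen prolyl hydroxylase and hypoxia target, gave 265, 356, 343 and 214 in its 1 measured probe set. Over all of its probe sets, dim ones included, the step was 0, and the part of the floor in that was not tested. LMNB1, lamin B1 of the nuclear envelope, gave 308, 377, 318 and 202, with 24 h the lowest of the 4. MPDU1, needed to use dolichol-linked mannose in glycosylation, gave 819, 986, 1095 and 736. GANAB, the catalytic subunit of the glucosidase II that trims new N-glycans, gave 1068, 1321, 1686 and 1178 and was the 1 lower gene whose second probe set also passed the limit (-0.58). AHCY, which clears S-adenosylhomocysteine, gave 1973, 1966, 2179 and 1522. CRACD (-0.67), KRTAP1-3 (-0.59), RNF212 (-0.58) and TKTL1 (-0.56) were under 150 on all 4 arrays. AP2B1, a clathrin adaptor subunit (311, 195, 417 and 272), and the folate transporter SLC46A1 (168, 204, 203 and 132) stood at only -0.17 and -0.14 in the second probe set. The highest of the 3 measured probe sets of SLC46A1 stood at 0.24. CNNM2 (153, 171, 213 and 141) was -0.0036 over all probe sets, dim ones included.

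Interferon and NF-kB targets held single genes past the limit in both directions. Of 22 measured interferon-stimulated genes 1 was higher and 1 lower, with a median of 0.037. The lower one was BST2, the virus-tethering protein tetherin, with 1142 in DMSO and 1634, 2250.2 and 1453 after 8, 16 and 24 h: it was highest at 16 h and still above control at 24 h. The higher one was SAMD9, and ISG20, an RNA exonuclease, was just under the limit (1914, 1254, 1164 and 1643, second probe set 0.49). Of 17 NF-kB targets the median was 0.021, and CCL4 was higher and CXCL10 lower. Over all genes 1.31% were higher and 0.273% lower, and counts of 1 in these 2 lists are given only as a description. CXCL10, a T-cell attracting chemokine, measured 265, 188, 580.3 and 392, so that 16 h stood out from both neighbours, and TNF was dim (97.2, 104, 112 and 86.8).

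NEDD8 and both parts of its activating enzyme were nearly level. NEDD8 measured 2370.1 at 16 h and 2352 at 24 h, NAE1 2735 at 16 h and 2752 at 24 h and UBA3 2230.4 at 16 h and 2330.4 at 24 h, steps of -0.011, 0.0089 and 0.063. Of 18 neddylation and COP9 signalosome genes 8 were above 0 and 10 below, with 0 past the limit. DCUN1D1, which helps to attach NEDD8 to cullins, gave 858, 909, 784 and 986, a step of 0.33 with 0.15 in its second probe set. COPS6, a signalosome subunit, was the farthest (1090.3, 1284, 1427 and 1107), but its second probe set was -0.01. Among 34 cullins and ligase subunits 0 passed the limit, and 16 were above 0. CUL5, the cullin of the SOCS-box ligases, came nearest, with 880.1, 992, 724 and 1017 and a second probe set at 0.38. CUL4B was 0.30 with 0.040 in its second probe set, CUL2 0.25, CUL1 0.089, CUL3 0.084 and CUL4A 0.013. Under other choices of probe set and processing CUL2 ran from 0.22 to 0.49 and CUL4A from -0.025 to 0.19. CCNF, the F-box protein cyclin F, was highest at 8 h and lower since (554, 835, 738 and 595), with -0.50 in its second probe set.

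NRF2 targets, antioxidant genes under a cullin 3 ligase, had a median above control of 0.77 at 8 h, 0.48 at 16 h and 0.44 at 24 h. In the last step 18 of 23 were below 0 and 5 above, with a median of -0.046 and 0 past the limit. Over all genes 6777 of 12446 were below 0. Of the 13 targets with a second probe set, that probe set was below 0 in 8 and above in 5, with a median of -0.020. SRXN1, which repairs peroxiredoxins, measured 1276 in DMSO and 5834, 4388 and 3737 after 8, 16 and 24 h. It was highest at 8 h, and 1.17-fold lower at 24 h than at 16 h. NQO1, a quinone reductase, was highest at 16 h (348, 1069, 1275 and 1136), with a step of -0.17 (log2). AKR1C3, an aldo-keto reductase, had levelled (172, 551, 1056 and 1061). HMOX1, haem oxygenase, had come back to the control level by 16 h (92.2, 230.1, 97.3 and 77.6), and GCLM, of glutathione synthesis, was lower in the brightest probe set (305, 867, 487 and 405) and 0.13 in the next. SLC7A11, the cystine transporter that NRF2 and ATF4 share, had the highest step of the 23: 153, 384, 166 and 217, with steps of 0.39 and 0.74 in its 2 probe sets.

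The remaining lists held no gene past the limit apart from P4HA2 among the HIF targets and JPX among the noncoding RNAs. Above 0 in most members were the chaperones and XBP1 targets of the endoplasmic reticulum (26 of 34, median 0.071), cytoplasmic ribosomal proteins (29 of 37, 0.021), noncoding RNAs (13 of 16, 0.12) and cholesterol synthesis (12 of 19, 0.051), against 45.5% of all genes. The cholesterol list's median was below 0 with the median over probe sets (-0.015) and with the next brightest (-0.078), and the ribosomal list's with array medians set equal (-0.0044). SEC24D, of the vesicle coat that leaves the endoplasmic reticulum, measured 1082, 706, 787 and 1061, and HSPA5, the chaperone BiP, 6261, 5131, 4582 and 5610.2, both below control at 16 h and closer at 24 h. LINC-PINT, a p53-linked noncoding RNA, was at 859 at 16 h and 1098 at 24 h, but was -0.051 over all of its probe sets. Below 0 in most members were proteasome subunits (23 of 27, median -0.063), ATF4 targets (18 of 21, -0.071), immediate early genes (17 of 21, -0.077), tubulins (11 of 13, -0.13), glycolysis (13 of 17, -0.062), heat shock genes (11 of 16, -0.076) and oxidative phosphorylation (23 of 34, -0.037), where 6777 of all 12446 genes were. DUSP2, a phosphatase of MAP kinases (346, 302, 296 and 229), FKBP4, a co-chaperone of HSP90 (2064, 2608, 2038 and 1608), and TUBA1A, an alpha-tubulin (463, 304, 449.6 and 365), were farthest below 0 in their lists. PDK1, which turns off pyruvate dehydrogenase, and BNIP3L, a mitophagy receptor, were above 0 among 25 HIF targets (3882, 4207, 4817 and 5582 and 454, 369.8, 735 and 848), of which 14 were below.

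**Figure D4:**
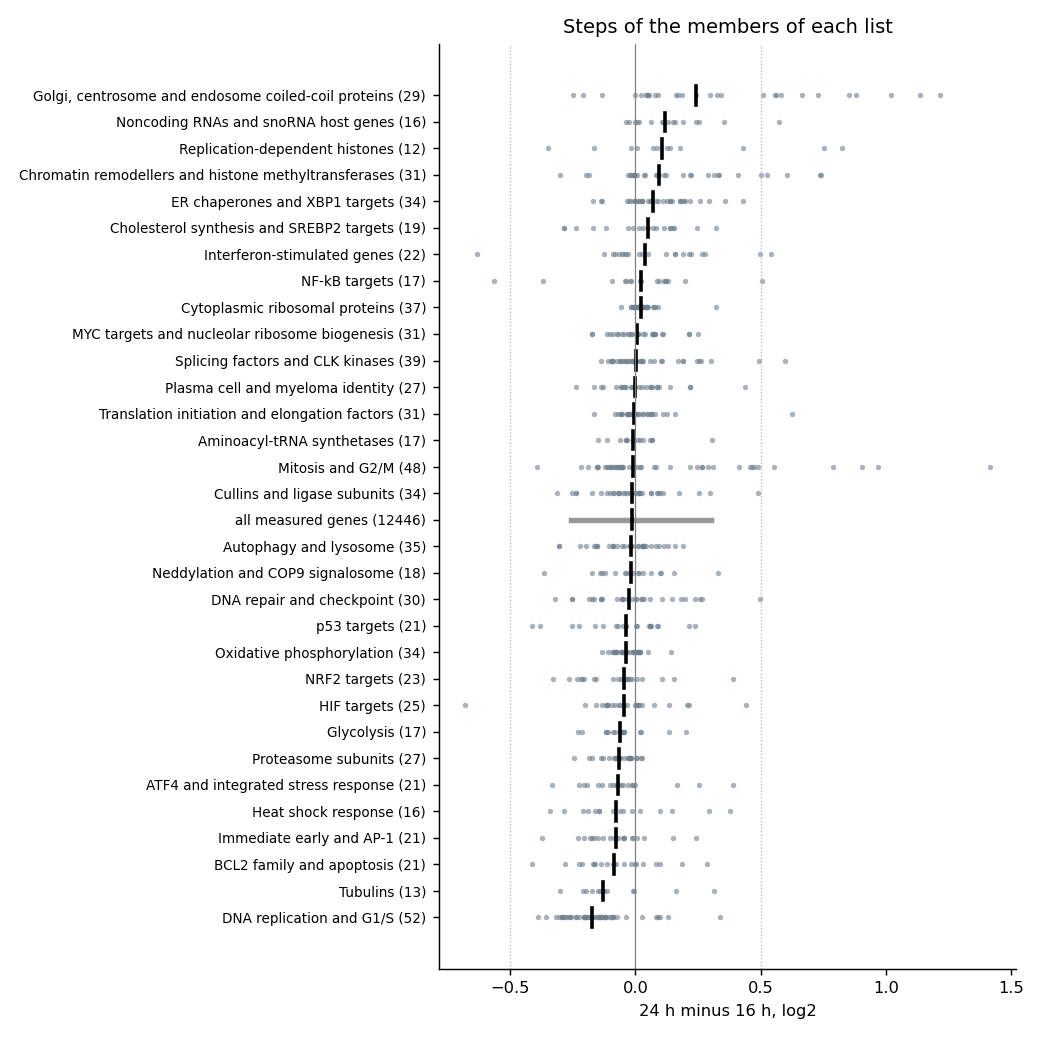
The 24 h minus 16 h difference (x axis, log2) of each measured member of the lists (grey points, number measured in brackets), with the list's median as a black bar and dotted lines at 0.5; the grey bar for all measured genes spans the 5th to the 95th percentile. The coiled-coil list lies farthest to the right (median 0.24) and DNA replication farthest to the left (-0.17). The lists were chosen with earlier results of these data known.

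The step could also be read on genes picked by the first 8 h, a contrast that shares no array with it. The 16 genes at least 2-fold above control at 8 h were 8 above 0 and 8 below in the last step (median 0.0023), from HMOX1 (-0.33) to NCAM1 (0.44). Their medians above control at 8, 16 and 24 h were 1.38, 1.14 and 1.19 (log2). The 15 genes at least 2-fold below control at 8 h split 8 and 7, with a median step of 0.17 and a highest one of 0.50 for TRPM8, a cold-sensing channel (454, 209, 324 and 458). KLF2 (706, 301, 286 and 269) and HES1 (392, 163, 189.6 and 162), transcription factors among them, stayed low. By the 0.5 limit, 222 genes were below control at 8 h, and of these 134 were above 0 in the last step, with 12 higher and 1 lower. Of the 172 above control, 81 were above 0, with 5 higher and 1 lower. Over all genes 45.5% were above 0, 1.31% higher and 0.273% lower, so the split of the 172 around 0 was near that of all genes. Across the 12446 genes the last step and the first had a Pearson r of -0.14 and a Spearman rho of -0.15, given as a description, since genes of 1 set of arrays are not independent.

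Higher genes had longer spans in the genome. The median span from start to end of the gene was 73.3 kb for the higher genes, 21.7 kb for the lower and 28.1 kb for all 12428 with a span. In 10 equal groups of genes by span, 0.724% of the shortest were higher and 0.242% in the fourth group, against 2.57%, 2.74% and 3.06% in the longest 3 groups. The medians moved by little, from -0.042 in the third group to 0.021 in the longest, and the correlation across genes was weak (Pearson r 0.11, Spearman rho 0.12). The 119 returning genes had a median span of 86.0 kb and the 32 of late onset 35.6 kb. Span is that of the gene with its introns, and the length of the transcripts was not analysed here. The 3' to 5' ratios of ACTB (2.14 at 16 h and 1.99 at 24 h) and GAPDH (1.18 and 1.21) moved in opposite directions between the arrays, and their part in the difference by span was not tested.

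**Figure D5:**
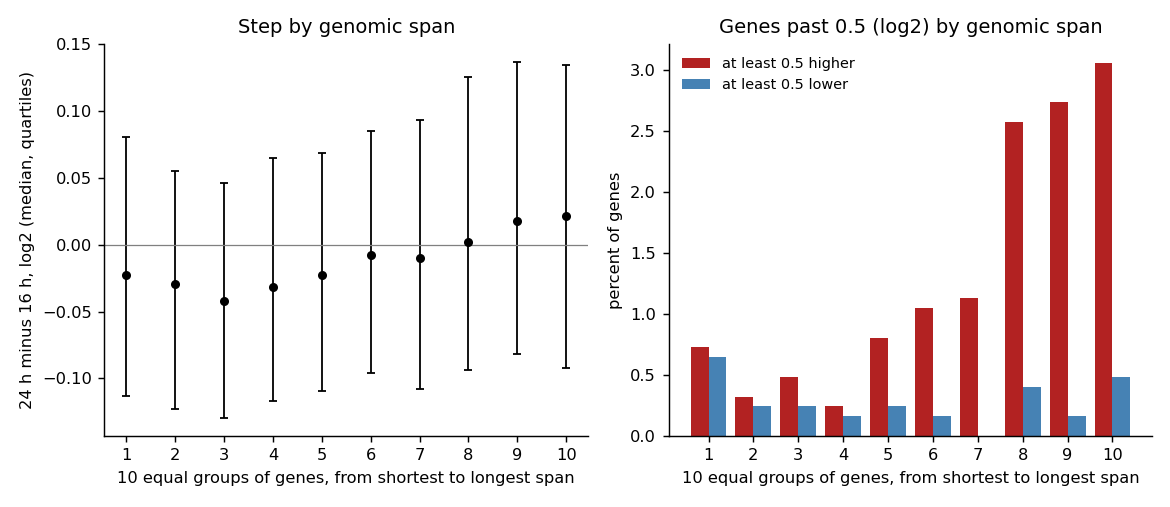
Left, the median 24 h minus 16 h difference (y axis, log2; bars are the quartiles) in 10 equal groups of 12428 genes by genomic span (x axis, shortest to longest). Right, the percent of genes at least 0.5 higher (red) or lower (blue) in each group; the higher genes reach 3.06% in the longest and the lower stay under 1%.

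Gene families named by their symbols were counted after the values were seen. Of 303 measured ZNF genes, mostly zinc-finger repressors, 11 were higher (3.63%) and 0 lower, with a median of 0.015. Of 77 CCDC genes, named only for a coiled-coil domain, 5 were higher (6.49%) and 0 lower, and of 35 CEP genes, centrosomal proteins, 2 (5.71%) and 0. The range was wide in each: ZNF genes ran from -0.45 for ZNF670 to 0.84 for ZNF91, and CEP genes from -0.30 for CEP76 to 0.66 for CEP290. The share over all genes was 1.31%.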

How the data were processed

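The authors deposited 1 intensity value per probe set and array, on a linear scale; total RNA was labelled with biotin and hybridised per the labels, and how probes were summarised, corrected for background and normalized is not given in the sources used here. The values came without detection calls. Arrays were grouped by the labels. Of 54675 probe sets, GEO's platform annotation paired 41097 with 1 gene symbol and 1801 with several, and 11777 were not listed; 41043 matched RefSeq by Entrez identifier. Values were raised to a floor of 48.4 (25th percentile) and taken to log2; the floor and limits are of all 4 arrays. No further normalization was applied, since array medians lay within 0.3 (log2). Each gene took its brightest single-symbol probe set by mean over the 4 arrays, and genes above the median probe set mean (93.9) were kept: 12446, leaving 7329. With 1 array a group, no test was made; limits were 2-fold and 0.5 (log2). Depth does not apply to arrays, and their number limits the precision. Named genes are the 15 highest and 15 lowest steps, up to 4 of each list, 6 of each pattern, and genes of the drug's pathway; others were chosen after their values were seen. Members and lists were chosen with earlier results of these data known. Scripts used Python 3.11.15 with numpy 2.4.6, pandas 2.3.3 and matplotlib 3.10.9, and were tested on simulated data. Alternatives were the probe set, filter, floor, pseudocount and normalization.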

Additional observations from a re-analysis of the deposited data

Results flagged for a closer look

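Probe sets that the annotation pairs with no gene or with several were left out of the comparison. Of the 5048 of them above the intensity limit, 185 (3.66%) were at least 0.5 higher at 24 h than at 16 h and 20 (0.396%) at least 0.5 lower, with a median difference of 0.034. At least 2-fold higher were 4 and at least 2-fold lower were 0. Of these 4, 3 also ended above the control array. Probe set 1557348_at measured 162 in DMSO and 148, 94.97 and 221 after 8, 16 and 24 h, a step of 1.22 (log2). Probe set 236395_at measured 832, 686, 434 and 962 in the same order, a step of 1.15. Probe set 1564656_at measured 106, 98.9, 65.7 and 141, a step of 1.11. Each was lowest at 16 h and highest at 24 h. The fourth, 233300_at, measured 534, 424, 198 and 441, below control on each later array.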

How the results depend on the processing

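Genes at least 2-fold higher numbered 5, and 2 with the next brightest probe set, 3 with a pseudocount of 50 and 2 without probe sets named _x_at or _s_at. At least 2-fold lower there were 0, and 1 when a gene's probe sets were reduced to their median, with array medians set equal or with quantile normalization. Genes at least 0.5 higher numbered 163, and 107 with the pseudocount. The 34 at least 0.5 lower became 15 with the next brightest probe set, 89 with no filter, and 9 with either the 75th percentile filter or the pseudocount. Late-onset higher genes, 32, became 19 with the median over probe sets, 15 with the next brightest, 60 with no filter, and 14 with either the stricter filter or the pseudocount. Fewer or more genes entered under the filters and the next brightest probe set (5719); otherwise the cause was not tested. Single genes were followed through the alternatives only for a set of named ones. Among those past 0.5, the direction turned for KIF20B (-0.17) and MYSM1 (-0.33) with the median over probe sets. With the next brightest it turned for KIF20B (-0.17) and ZNF91 (-0.072). Over all genes past 0.5, the next brightest kept the direction in 98 of 106 higher genes and 6 of 8 lower ones that had one. Smaller steps of named genes turned too, with the median over probe sets among them NCAM1 (-0.18), LINC-PINT (-0.051) and GCLM (0.13). The median step of the 4 measured probe sets of NCAM1 was 0.28. Leaving out the floor changed no count. The SD over genes ran from 0.149 to 0.189, and the share above 0 from 38.6% (array medians set equal) to 49.6% (next brightest). The higher and lower genes were 141 and 48 with medians set equal and 140 and 47 with quantile normalization. Medians of the coiled-coil list (0.11 to 0.30) and the DNA replication list (-0.20 to -0.13) kept their sign under all 11 alternatives, and that of the histone list under 8 of 9. No replicate could be left out with 1 array a group. No paired analysis was possible because no group has more than 1 array. How dim a probe set may be read is limited by the missing detection calls.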
